A study of Mus musculus with 4 samples.

Results

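H3K27ac, acetylation of lysine 27 of histone H3, was mapped by ChIP-seq in layer tissue of the hippocampus, and the genes described here are those with a CpG-rich promoter that carried no peak of the mark. They were selected on the authors' replicated peak list together with the reference sequence. A gene was taken when it was an autosomal protein-coding gene of GENCODE M21, when the 1 kb centred on its main transcription start site had a CpG observed/expected ratio of 0.6 or more, and when no replicated peak lay within 1 kb of any of its coding start sites. The rule found 805 of 9860 CpG-rich autosomal coding genes, or 8.16%. The other 9055 had a promoter peak and are called marked, and the 805 are called unmarked. In all, 20722 autosomal coding genes were considered, and one symbol, Pcdha11, stands for 2 of the 805 gene records. A promoter outside the list has no peak that passed the authors' calling, which is not a measurement of no acetylation.

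The 4 samples came from adult male B6CASTF1/J mice aged 2 months, a hybrid strain, and formed a single group with no genotype or treatment contrast. Each came from pool C, which the labels give as biological replicate 1, or from pool D, given as biological replicate 2, so there were 2 pools, each of 7 biosamples and each sequenced as 2 technical replicates from fragments of 200 to 600 bp. The pool is therefore the unit of replication, and every value below is the authors' value for a peak list and not for a sample. The tissue mixes neurons with glia and vessel cells, so fewer cells with the mark and less of the mark per cell cannot be told apart. The sequencing depth is unknown, because the lists give no read totals.

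Defining markers of cell types of the tissue were looked up in the replicated list. Of 18 such genes, 17 had a promoter peak, but the 18 were picked after values had been seen, so the count describes them and does not test the tissue. They included Camk2a (deposited signal 21.9) and Neurod2 (18.8) of excitatory neurons, Prox1 (12.1) and C1ql2 (13.6) of dentate granule neurons, and Wfs1 (10.4) of CA1 pyramidal neurons. Gfap of astrocytes (7.06), Mbp of oligodendrocytes (14.2) and Csf1r of microglia (6.82) were also marked, as was the endothelial gene Cldn5 (6.71). The marker without a replicated peak was Slc32a1, the vesicular GABA transporter of inhibitory neurons, which is one of the 805.

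H3K27ac is deposited by the acetyltransferases p300 and CBP at the promoters and enhancers of active genes. Most CpG-rich promoters, known as CpG islands, belong to genes that all cells use, and they are commonly free of DNA methylation. A known exception is formed by regulators of embryonic development, whose CpG islands can be held silent by Polycomb group proteins through H3K27 trimethylation, which cannot coexist with acetylation on one histone tail. Germline genes are another known exception, since many of their promoters gain DNA methylation in somatic cells. Neither Polycomb binding nor DNA methylation was measured here.

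Reference sequences of 9 unmarked promoters show how different such promoters can be. Each window is the 200 bases just upstream of the gene's first annotated start in GENCODE and RefSeq, read from build GRCm38 and written 5′ to 3′ on the gene's own strand. The first 3 belong to genes of embryonic patterning, with every CpG in capitals. Irx1, an Iroquois homeobox gene, is at chr13:71963724-71963923 on the minus strand. En2, an Engrailed gene of midbrain and cerebellum development, is at chr5:28165494-28165693 on the plus strand. Wnt3a, a secreted Wnt ligand, is at chr11:59290753-59290952 on the minus strand.
Irx1: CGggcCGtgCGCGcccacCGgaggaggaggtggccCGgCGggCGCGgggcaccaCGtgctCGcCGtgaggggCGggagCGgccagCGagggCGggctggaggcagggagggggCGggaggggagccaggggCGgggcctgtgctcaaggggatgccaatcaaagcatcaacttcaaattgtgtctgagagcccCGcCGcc
En2: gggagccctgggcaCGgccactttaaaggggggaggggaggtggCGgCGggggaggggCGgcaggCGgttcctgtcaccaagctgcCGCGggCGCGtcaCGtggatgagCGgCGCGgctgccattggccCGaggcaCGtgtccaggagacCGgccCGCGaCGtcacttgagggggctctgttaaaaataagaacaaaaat
Wnt3a: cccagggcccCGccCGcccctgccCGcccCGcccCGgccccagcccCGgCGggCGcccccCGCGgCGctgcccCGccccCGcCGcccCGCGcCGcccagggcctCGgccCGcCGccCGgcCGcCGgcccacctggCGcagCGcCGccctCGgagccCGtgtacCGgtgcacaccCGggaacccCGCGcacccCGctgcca
These windows held 20, 19 and 33 CpGs. All 3 genes were absent from each of the 4 peak lists.

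The next 3 belong to genes of meiosis, and the capitals mark the E-box CACGTG, which reads the same on both strands. Sycp3, a component of the synaptonemal complex, is at chr10:88459369-88459568 on the plus strand. Tex12, also a component of that complex, is at chr9:50561326-50561525 on the minus strand. Hormad1, which acts in meiotic chromosome pairing, is at chr3:95559477-95559676 on the plus strand.
Sycp3: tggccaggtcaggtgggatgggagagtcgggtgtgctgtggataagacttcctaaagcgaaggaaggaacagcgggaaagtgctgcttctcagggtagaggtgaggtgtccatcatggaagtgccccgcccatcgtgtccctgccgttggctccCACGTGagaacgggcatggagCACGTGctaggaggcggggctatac
Tex12: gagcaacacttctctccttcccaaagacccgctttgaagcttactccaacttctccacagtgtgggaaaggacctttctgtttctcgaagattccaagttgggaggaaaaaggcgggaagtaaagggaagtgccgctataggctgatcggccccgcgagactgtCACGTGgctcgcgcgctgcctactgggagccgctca
Hormad1: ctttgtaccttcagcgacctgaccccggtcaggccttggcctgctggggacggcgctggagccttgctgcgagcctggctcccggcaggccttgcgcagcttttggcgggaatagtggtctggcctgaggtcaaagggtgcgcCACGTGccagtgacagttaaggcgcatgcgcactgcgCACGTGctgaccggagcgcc
Sycp3 and Hormad1 held 2 matches each and Tex12 held 1. Their windows had 10, 16 and 12 CpGs in that order, fewer than the Irx1, En2 and Wnt3a windows.

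The last 3 belong to genes of cell division, and the capitals mark the CCAAT box or its reverse complement ATTGG. Ccnb2, which encodes cyclin B2, is at chr9:70421555-70421754 on the minus strand. Top2a, which encodes DNA topoisomerase II alpha, is at chr11:99024200-99024399 on the minus strand. Mki67, which encodes the proliferation marker Ki-67, is at chr7:135716451-135716650 on the minus strand.
Ccnb2: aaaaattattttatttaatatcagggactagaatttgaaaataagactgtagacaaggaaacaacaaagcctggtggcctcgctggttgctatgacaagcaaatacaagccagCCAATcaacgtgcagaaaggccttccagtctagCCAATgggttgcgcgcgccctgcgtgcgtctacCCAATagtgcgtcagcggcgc
Top2a: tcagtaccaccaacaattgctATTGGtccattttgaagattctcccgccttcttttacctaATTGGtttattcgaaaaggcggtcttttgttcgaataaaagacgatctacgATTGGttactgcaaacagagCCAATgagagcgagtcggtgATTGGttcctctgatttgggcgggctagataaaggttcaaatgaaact
Mki67: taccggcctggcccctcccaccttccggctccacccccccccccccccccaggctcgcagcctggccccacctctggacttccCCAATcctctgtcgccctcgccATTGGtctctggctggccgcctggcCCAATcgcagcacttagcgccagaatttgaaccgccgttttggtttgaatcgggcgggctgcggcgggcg
Top2a held 5 matches, and Ccnb2 and Mki67 held 3 each. The Top2a window had 9 CpGs, the lowest number of the 9 windows.

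Transcription factors of embryonic development were the largest group with a shared function. Of 256 CpG-rich genes on 13 lists of such factors, 156 were unmarked, or 60.9% (95% Wilson interval 54.8% to 66.7%), beside 8.16% of all CpG-rich genes. The interval counts genes only and treats them as independent, which neighbouring genes of a cluster are not. Homeobox genes alone gave 103 of 130 (79.2%, 71.5% to 85.3%). The lists were not tested for enrichment, since the genes were selected on the same peaks.

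The Hox genes, which set the identity of segments along the body axis, were unmarked without exception among the CpG-rich ones, at 25 of 25. The 14 other autosomal Hox genes fell below the CpG threshold, and none of these had a promoter peak either. The median distance from these 25 genes to the nearest replicated peak was 118 kb. Hoxa5 had the highest CpG ratio among them, at 0.995, and lay 85.0 kb from the nearest peak, which had a signal of only 3.27. Hoxa13, the last gene of that cluster, lay 141 kb from a peak.

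Among NK-like and related homeobox genes, 38 of 47 were unmarked. They included Barhl2 with a ratio of 1.07, En1 and En2, Gsx2, Vax1, Nkx2-1 and the Cdx, Tlx, Hmx and Gbx genes, which act in brain regions, gut and other organs. The 9 marked genes were Emx1, Emx2, Dlx5, Dlx6, Hhex, Hlx, Msx1, Nkx2-2 and Nkx6-2. Emx2, a factor of the developing cortex and hippocampus, had by far the highest signal of these at 21.7, followed by Nkx2-2 at 9.02 and Emx1 at 8.47. Dlx5 and Dlx6, which act in inhibitory neurons, were near the lower end of the list at 3.12 and 3.47. Their relatives Dlx1 and Dlx2 were unmarked, yet had a pool C peak of 4.31 and 3.49 respectively and none in pool D. In the same list Dlx6 had a peak of 3.90 and Dlx5 had none, so these 4 Dlx genes of inhibitory neurons, though on either side of the rule, were all at the low end of pool C signal or absent from it.

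The paired and paired-like class had 19 unmarked genes of 20, among them Pax2, Pax3, Pax7, Pax9, Otx2 and Gsc. Its marked gene was Otx1, a factor of the developing forebrain, with a signal of 7.40. LIM homeobox genes had 7 of 8, and the marked one was Lhx2, a selector gene of the developing cortex, with a signal of 20.1. Lhx6, which acts in inhibitory neurons, was unmarked with a pool C peak of 4.05. In all, 5 of the 103 unmarked homeobox genes had a pool C promoter peak, beside 104 of all 805 unmarked genes (12.9%).

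The POU, sine oculis, TALE and CUT classes were split. Unmarked genes were Pou4f1, Pou4f2 and Pou4f3, which act in sensory neurons, and Six2, Six3 and Six6. The marked POU genes were Pou2f1, Pou3f1, Pou3f2, Pou3f3 and Pou6f1, and Pou3f3, a cortical factor, had a signal of 22.4. All 6 Irx genes were unmarked, and Irx1 and Irx2 lay 687 and 485 kb from the nearest peak. Meis1, Meis2, Pbx3, Cux1 and Cux2 were marked.

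Other factor classes ran from nearly all to few unmarked genes. AP-2, Dmrt, Ebf and Runx genes had 10 of 12, and T-box genes had 7 of 9, with the gene T of the primitive streak, Eomes and Tbx1 among them. Developmental bHLH factors had 14 of 29. Neurog1, Neurog2, Atoh1, Ptf1a and Hand2, which specify progenitors, were unmarked, whereas Neurod1 (signal 16), Bhlhe22 (24.9), Hes1 and Olig2 were marked. Forkhead genes had 11 of 29, with Foxa1, a factor of endoderm, among the unmarked ones. Developmental zinc fingers had 8 of 31. Sox genes had 2 of 14, Sox30 and Sox14, and the marked ones included Sox2, Sox9 and Sox11. Over all 100 marked developmental factors the median signal was 8.91 (quartiles 5.75 and 14.8), beside 15.04 (10.5 and 20.2) over all 9055 marked genes.

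**Figure D1:**
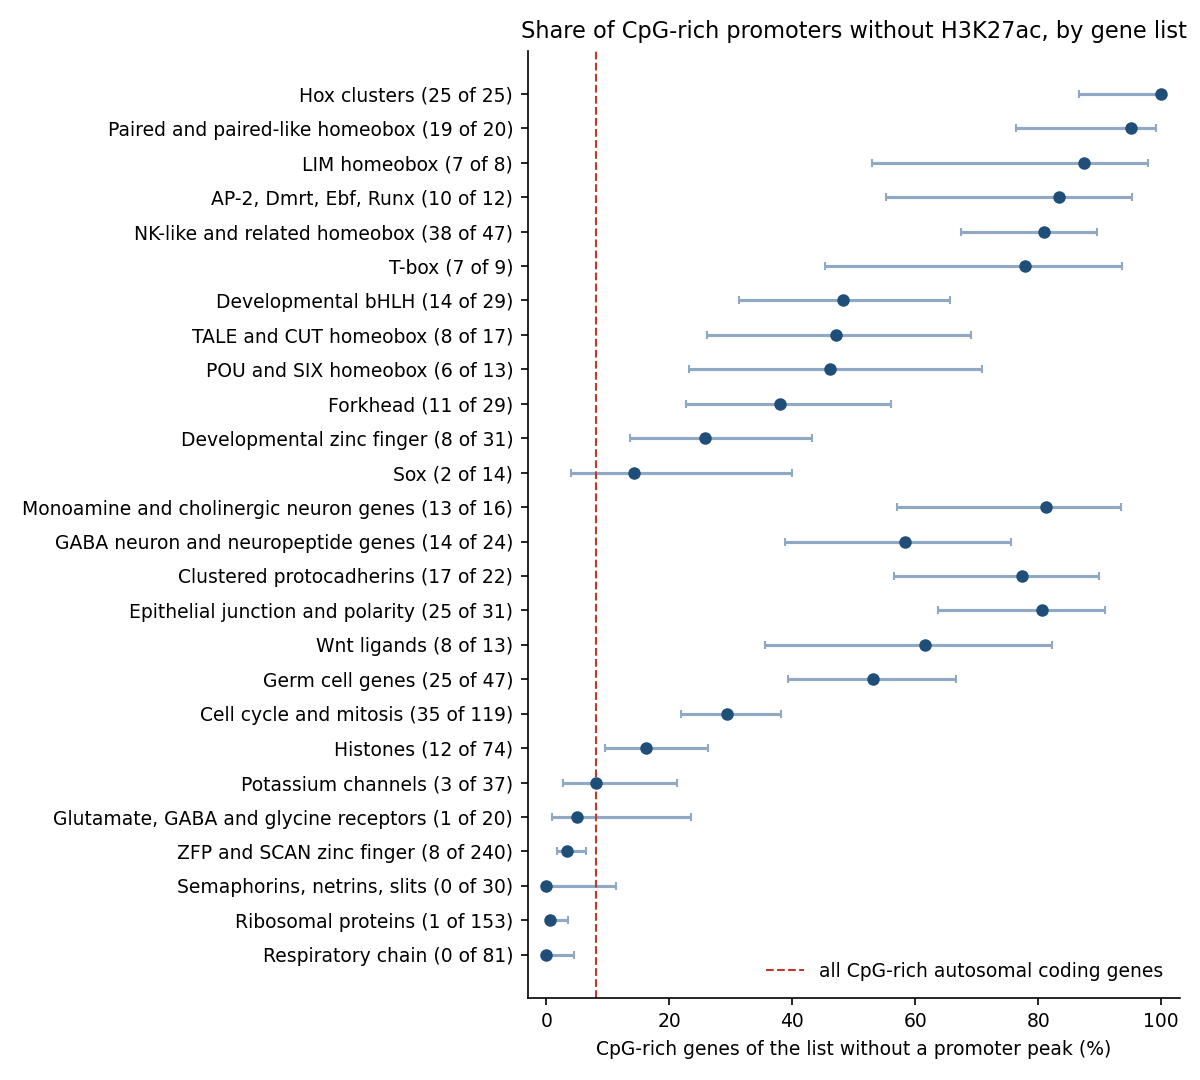
Share of the CpG-rich autosomal coding genes of each list that had no replicated peak within 1 kb of a coding start site (percent, points) with 95% Wilson intervals (bars) and the counts in parentheses. The dashed line is the share over all CpG-rich genes, 8.16%. Points run from 0 of 81 respiratory chain genes to 25 of 25 Hox genes. The monoamine and cholinergic, GABA neuron, epithelial and cell cycle lists were made after members had been seen.

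Other factor families varied around the share of all CpG-rich genes. Zinc finger proteins named Zfp, Zbtb and Zscan had 8 of 240 (3.33%, 1.70% to 6.44%). Nuclear receptors had 1 of 21, and the unmarked one was Esrrg. ETS factors had 1 of 13, which was Fev, a factor of serotonin neurons. KLF and SP factors had 3 of 19 (15.8%), Klf14, Sp5 and Sp9.

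Genes of basic cell function were seldom unmarked. Respiratory chain genes had 0 of 81, proteasome and RNA polymerase subunits had 0 of 62, and genes with symbols of cytosolic or mitochondrial ribosomal proteins, which include the Rps6k kinases, had 1 of 153. That one was Rpl10l, a copy of the gene for ribosomal protein L10 without introns, at 4.22 kb from the nearest peak. Genes with symbols of ABC proteins or of P-, F- and V-type ATPase subunits had 1 of 45.

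Secreted signals of development were often unmarked. Wnt ligands had 8 of 13, namely Wnt2, Wnt2b, Wnt3, Wnt3a, Wnt5b, Wnt6, Wnt9b and Wnt10b, whereas Wnt4, Wnt5a, Wnt7a, Wnt9a and Wnt11 were marked. Wnt2 had a peak of 3.01 in the list of both pools together. Ligands of the TGF-beta and BMP family had 7 of 13, of which Bmp7 and Bmp2 had pool C peaks of 3.49 and 3.28. Extracellular antagonists of Wnt and BMP and the R-spondins had 9 of 15, with Sfrp1, Fst and Grem1 among them. Fgf8 and Fgf15, ligands of early brain patterning, were the unmarked ones of 5 Fgf genes, at 5.91 and 4.09 kb from the nearest peak. Gdnf and Nrtn and the receptor gene Ret were unmarked, and the GDNF co-receptor genes Gfra1 and Gfra2 were marked. Guidance molecules gave the opposite picture: semaphorins, netrins and slits had 0 of 30 unmarked, and ephrins with Eph receptors had 1 of 17, Epha8.

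Genes that define neurons of other brain regions were also found among the 805. Of 16 genes on a list for monoamine and cholinergic neurons, 13 were unmarked, but this list was made after members had been seen, as were those for inhibitory neurons, cerebellins, GDNF signalling, the cell cycle and heparan sulfation. Receptors for monoamines and acetylcholine, taken by symbol alone, had 3 of 15 (20%). The 13 on the monoamine and cholinergic list included Slc6a4, the serotonin transporter, Slc18a3, the vesicular acetylcholine transporter, and Drd2, the dopamine D2 receptor. They also included the factors Fev, Lmx1a, Lmx1b, Phox2a and Foxa1. The 3 marked genes of that list were Gata2, Nr4a2 and Slc18a1. Nr4a2 is also an activity-induced gene of hippocampal neurons, and its signal was 17.7. Gata2 was marked by a peak of 4.51 at 908 bp from its start, close to the limit of the rule.

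Genes on the list for inhibitory neurons and neuropeptides had 14 of 24 unmarked. The 10 marked genes were Kcnc1 (14.7), Calb1 (11.1), Erbb4 (6.25), Ndnf (4.86), Gjd2 (4.05), Penk (3.47), Dlx6, Nxph1 (3.21), Dlx5 and Gad2. Npy, the gene for neuropeptide Y, had no promoter peak in any list, and its nearest peak was 4.88 kb away with a signal of 3.76. Reln, which encodes reelin, had a CpG ratio of 1.01 and lay 205 kb from its nearest peak. Tac1, the tachykinin gene, lay 136 kb from one. Slc32a1 had a peak of 3.90 in pool C and 3.01 in the list of both pools together, and none in pool D. By comparison, Gad2, the gene of a GABA-synthesizing enzyme, was marked at 3.01 with a pool C signal of 4.42 and no pool D peak, and Gad1, whose promoter is not CpG-rich, was marked at 12.4. The part of cell number in these values was not tested.

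Cerebellins and C1q-like proteins, secreted organizers of synapses, had 5 of 6 unmarked. They were Cbln1, Cbln2, Cbln4, C1ql1 and C1ql4. C1ql2, which granule neurons of the dentate gyrus make, was the marked one. Receptors for peptides and hormones had 8 of 15 unmarked, including Oxtr, Avpr1a and Ghsr, the receptors of oxytocin, vasopressin and ghrelin. Ghsr had a pool C peak of 4.72. Receptors for glutamate, GABA and glycine had 1 of 20, Grin3b, and potassium channels had 3 of 37, which is 8.11% and close to the share of all CpG-rich genes. Sodium, calcium and HCN channels had 3 of 22, with Hcn3 and Hcn4 among them, and Hcn4 is known from the heart.

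Clustered protocadherins, whose isoforms are chosen by single neurons, had 17 of 22 unmarked. The unmarked ones were variable alpha and gamma exons such as Pcdha6 and Pcdhga8, and the marked ones were Pcdha5, Pcdhac2, Pcdhga11, Pcdhgc3 and Pcdhgc4. The C-type isoforms on the list, which most neurons express, were thus all marked. Other cadherins had 1 of 19, Cdh1, the epithelial E-cadherin.

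Genes of the germ line had 25 of 47 unmarked (53.2%, 39.2% to 66.7%). They include genes of the double-strand break (Spo11), strand exchange (Dmc1, Meiob), cohesin (Stag3, Smc1b) and meiotic chromosome pairing (Hormad1). They also include genes of the synaptonemal complex (Sycp1, Sycp2, Sycp3, Tex12) and the piRNA pathway (Asz1, Mov10l1, Tdrd1, Mael, Pnldc1). Germ cell RNA helicase and binding proteins (Ddx4, Boll) were unmarked as well. The median distance of the 25 genes to a peak was 19.9 kb, against 60.7 kb for the unmarked developmental factors. These pathways were not uniformly unmarked, since Syce2 of the synaptonemal complex (4.395) and Tdrkh of the piRNA pathway (11.11) were marked. So were Mei1 (2.277) and Hspa2 (13.67). The marked genes on this list also included Dazl (7.87), Tdrd5 (7.87) and Tex14 (18.5). Spag7, Spata2 and Tex10 were marked too, and their names place them on the list although they are not restricted to germ cells.

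Genes of the cell cycle and mitosis had 35 of 119 unmarked (29.4%, 21.97% to 38.1%). They included the cyclins Ccnb1 and Ccnb2, the kinases Aurkb, Bub1b and Melk, the replication genes Mcm3, Mcm6, Cdc6 and Clspn, and the proliferation markers Mki67 and Top2a. The list was split within complexes and pathways: Aurka (28.2), Birc5 (16.4), Ccna2 (8.78) and Cdc20 (6.01) were marked. Values in the other lists varied among the unmarked ones. Top2a had a peak of 4.84 in pool C and 3.47 in the list of both pools together, and Mcm6 and Ccnb2 had pool C peaks of 3.16 and 2.85, whereas Mki67 had none in any list. In all, 4 of the 35 had a pool C peak. The 35 genes had a median of 11 replicated peaks within 100 kb, beside 9 for the marked cell cycle genes and 13 for all marked genes. The unmarked developmental factors had a median of 2.5.

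A list of epithelial genes, put together after members had been seen, had 25 of 31 unmarked. Lists made by symbol alone had lower shares, with 2 of 4 keratin and epidermal genes, 3 of 8 claudins and connexins and 3 of 12 integrins. The 25 unmarked epithelial genes included Cdh1, Grhl2, Esrp2, Itgb4, Cldn3, Ovol1 and St14, which build or control cell junctions and barrier layers. Esrp2, a splicing factor of epithelia, had peaks of 4.64 in pool C and 4.04 in the list of both pools together. The marked genes of the epithelial list were Cgn, Dsp, Grhl1, Jup, Marveld2 and Spint2. Collagens had 7 of 13 unmarked, among them Col2a1 of cartilage, and 3 of the 7 had a pool C peak. Enzymes that add 3-O sulfates to heparan had 5 of 6, with Hs3st4 the marked one. Hs3st5 lay 467 kb from any replicated peak but had a pool C promoter peak of 3.49.

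Some unmarked genes lie in repeated sequence. For each gene the share of the 31-base words of its 1 kb promoter that occur elsewhere in the reference was counted, and promoters with more than 50% were called mostly repeated. Of the 805 genes 85 were mostly repeated (10.6%, 8.62% to 12.9%), and so were 42 of the 9055 marked genes (0.464%, 0.343% to 0.626%). These 85 lay a median of 97.4 kb from a peak. They included 52 of the 84 unmarked genes with predicted or clone names, 8 of 12 unmarked histone genes, and none of the developmental factors. Without mostly repeated promoters, predicted and clone-named genes had 32 of 310 unmarked and histones 4 of 53. Reads from repeated sequence may not map to one place, and their treatment by the authors is not named in the sources used here. The part of mapping in these 85 genes was not tested.

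Most unmarked genes stood alone, and some stood next to each other. In the order of CpG-rich genes along each chromosome, 163 of the 805 were in 32 runs of 3 or more, 124 in pairs and 518 alone. The longest run was the Hoxa cluster with Evx1 on chromosome 6, with 12 genes over 155 kb and no replicated peak between the first and last start. The Hoxd cluster with Evx2 on chromosome 2 had 8 genes over 103 kb, Hoxc on chromosome 15 had 5 over 69.5 kb and Hoxb on chromosome 11 had 4 over 32.1 kb, all without a peak between. Irx1, Irx2 and Irx4 on chromosome 13 spanned 1297 kb with 1 peak. Dmrt1, Dmrt3 and Dmrt2 on chromosome 19 spanned 167 kb with none, as did Wnt2, Asz1 and Cftr on chromosome 6 over 140 kb. Nkx2-1, Pax9 and Slc25a21 on chromosome 12 spanned 661 kb with 1 peak. Other runs held more peaks. Tlx1, Lbx1 and Fgf8 on chromosome 19 spanned 592 kb with 26 peaks. Tmem132c, Tmem132d and Fzd10 on chromosome 5 spanned 1359 kb with 16, and Irx3, Irx5 and Irx6 on chromosome 8 spanned 872 kb with 4. Several other long runs were repeated sequence: 11 predicted genes over 2329 kb of chromosome 14 and 9 over 36.0 kb of chromosome 9 were mostly repeated throughout. A run of 9 on chromosome 4 had 8 such genes and ended with Cdkn2a, which encodes a cell cycle inhibitor and was not repeated. A run of 8 on chromosome 17 over 197 kb held H2-Q class I genes, 2 of them mostly repeated.

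Distance to the nearest replicated peak varied widely. The median over the 805 genes was 29.2 kb (quartiles 12.9 and 69.7 kb). Only 20 genes had a peak at 1 to 2.5 kb and 58 at 2.5 to 5 kb, whereas 131 had none within 100 kb of any coding start. For 2 genes peaks lay on both sides of the main start within 5 kb. At the limit of the rule, the members nearest to a peak were Ube2c (1122 bp), Hist2h3c1 (1312 bp), Tec (1327 bp), Pheta2 (1367 bp) and P4ha3 (1454 bp). The marked genes farthest from their peak were Sv2c (968 bp), Lgr6 (920 bp), Gata2 (908 bp), Onecut1 (848 bp) and Des (845 bp). At the CpG limit, Rxfp2 and Ly6k were just inside at 0.6006, and Gm13290 was just outside at 0.5995. Apart from repeated genes, the farthest were Has2, a hyaluronan synthase gene, at 788 kb, Irx1, the clone-named 5730507C01Rik, Irx2, Hs3st5 and Bard1.

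**Figure D2:**
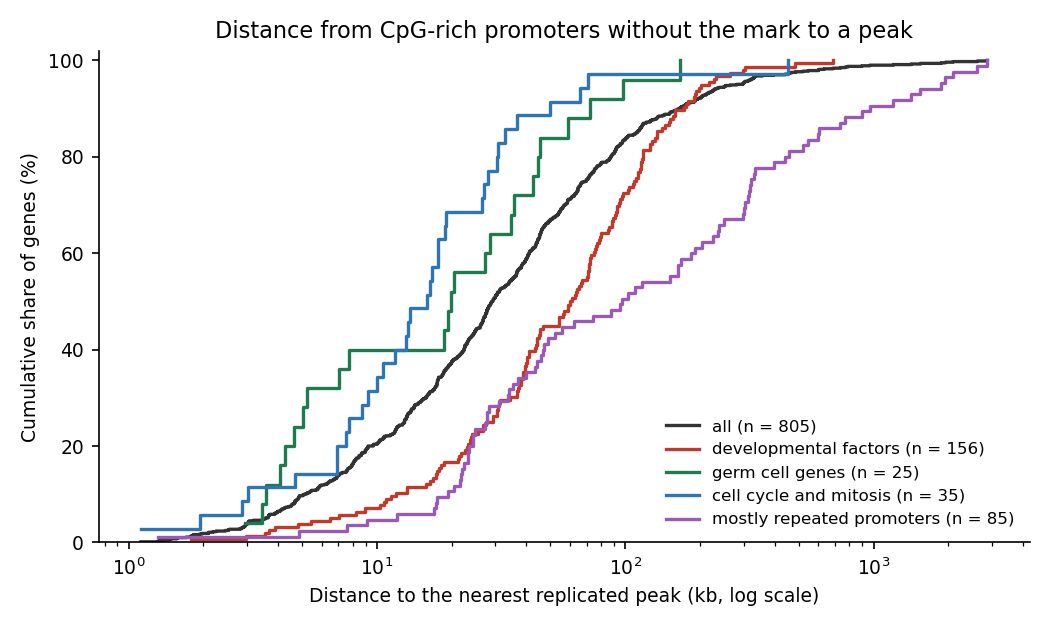
Cumulative share of unmarked CpG-rich genes (percent, vertical) by distance from a coding start to the nearest replicated peak (kb, log scale), for all 805 and for 4 groups of them. The median is 15.9 kb for cell cycle genes, 19.9 kb for germ cell genes, 60.7 kb for developmental factors and 97.4 kb for mostly repeated promoters.

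The lists of single pools were next searched for promoter peaks of these genes. They derive from the same samples as the replicated list, so the counts describe the lists and do not test the selection. The pool C list had a peak within 1 kb for 104 of the 805 (12.9%, 10.8% to 15.4%), and the pool D list for 3 (0.373%, 0.127% to 1.09%). Of all 9860 CpG-rich genes, 7.6% had no promoter peak in pool C, 10.7% had none in pool D and 7.45% had none in the list of both pools together. No gene of the 805 had one in both pools. The list of both pools together had one for 85, of which 75 were also in pool C, and 688 genes (85.5%) were in none of the 4 lists.

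The pool C peaks at these promoters were low. Their median signal was 4.05 with a range of 2.57 to 7.59, beside a median of 17.4 at the 9007 marked genes with a pool C peak and 4.86 over all pool C peaks. Bves, which encodes a membrane protein of heart and skeletal muscle, had the highest at 7.59 and was at 5.78 in the list of both pools together. It was followed by Arhgdig (6.77), Ankle1 (6.13), Pik3c3 (5.88), Plce1 (5.74) and Lypd6 (5.74). By group, 6 of the 156 developmental factors, 4 of the 35 cell cycle genes and 0 of the 25 germ cell genes had a pool C peak.

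Pool D gave one exception of another kind. Tmem267 and 3110070M22Rik, which start close together on chromosome 13, shared a pool D peak of 11.7 that had no counterpart in pool C or in the list of both pools together. The third pool D gene was Slc25a21, at 3.15. The reason for the Tmem267 peak being in one list was not tested.

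**Figure D3:**
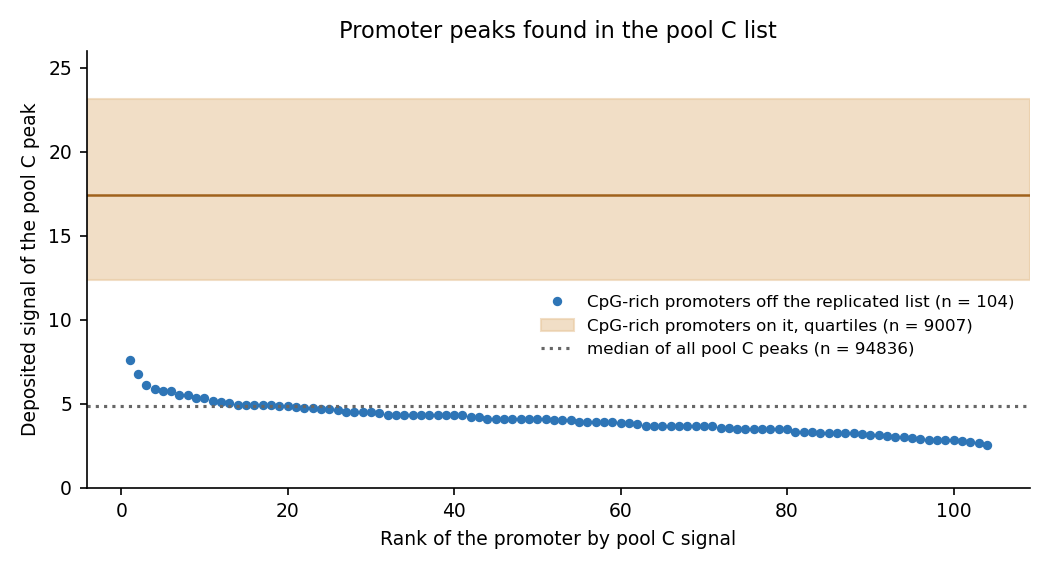
Deposited signal of the pool C peak at each of the 104 CpG-rich promoters that were off the replicated list (points, ranked), with the quartiles and median of 9007 promoters on it (band and line) and the median of all pool C peaks (dotted line). The points run from 7.59 down to 2.57 and lie below the band, which spans 12.4 to 23.1.

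Sequence features overlapped widely between unmarked and marked promoters. The CpG ratio, which the rule also used, had a median of 0.718 (quartiles 0.648 and 0.802) in unmarked and 0.790 (0.707 and 0.878) in marked genes. GC content had medians of 60.8% and 61.4%. The share of unmarked genes was 14.95% at ratios of 0.6 to 0.7, 7.91% at 0.7 to 0.8, 5.31% at 0.8 to 0.9 and 2.99% at 1.0 or more. The 12 genes at 1.0 or more included the developmental factors Barhl2, Ebf3, Pou4f1 and En2. The CpG-dense stretch around the start had a median of 690 bp in unmarked and 830 bp in marked genes. The unmarked share was 17.4% for stretches below 400 bp and 9.56% at 400 to 800 bp. It was 5.62% at 800 to 1200 bp and 5.46% at 1200 to 2000 bp. Of 97 genes with a stretch of 2000 bp or more, 10 were unmarked (10.3%, 5.70% to 17.9%), among them En2, Hcn4, Slc18a3 and Cdkn1c. That interval includes the 8.16% of all CpG-rich genes.

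**Figure D4:**
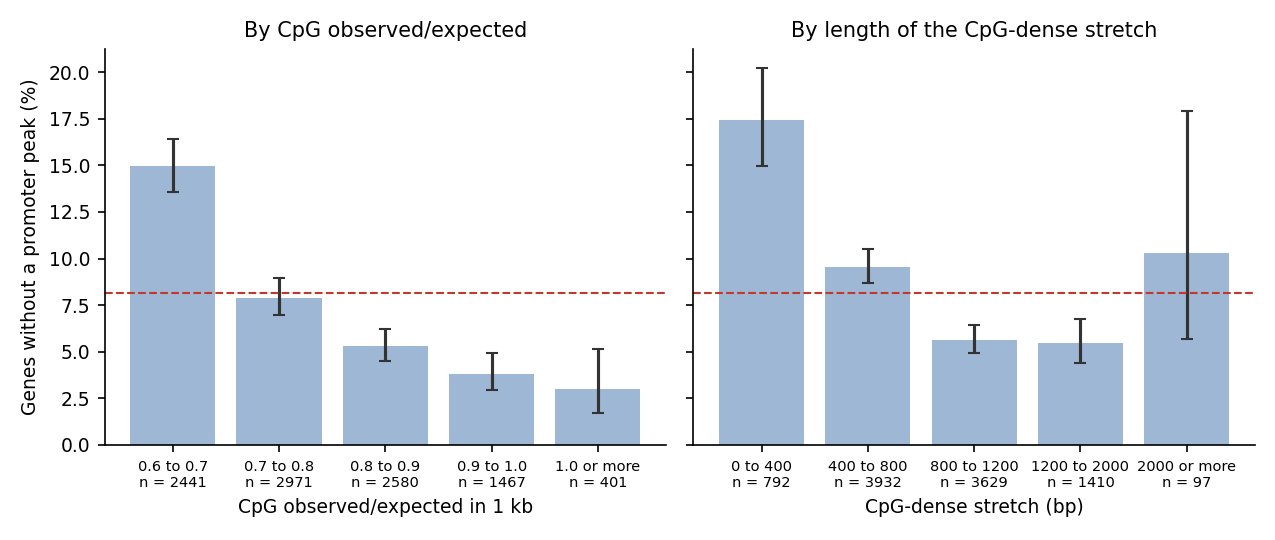
Share of CpG-rich genes without a replicated promoter peak (percent, bars, with 95% Wilson intervals) by CpG observed/expected ratio in the 1 kb promoter (left) and by length of the CpG-dense stretch in bp (right), with the number of genes under each bar. The dashed line is 8.16%, and the left bars fall from 14.95% to 2.99%.

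Gene structure and neighbourhood differed in several counts. Unmarked genes had a median length of 17.2 kb and marked genes 26.9 kb. Developmental factors had lower medians in both groups, at 6.28 kb for unmarked and 13.5 kb for marked ones. A single coding transcript was annotated for 44.0% of unmarked and 29.0% of marked genes. A coding gene started head to head within 1 kb at 25 unmarked genes (3.11%, 2.11% to 4.54%) and at 17.1% of marked genes. A peak at such a pair counts for both partners, so this share is tied to the rule. None of the 156 developmental factors had such a partner, but 32 of them (20.5%) had a start of a long noncoding RNA within 1 kb. Among the 100 marked developmental factors 1 had a head-to-head partner and 27 had such a noncoding start. The noncoding share was 12.2% over all unmarked and 12.8% over all marked genes. Peaks elsewhere in the gene body were found at 21.9% of unmarked and 55.6% of marked genes, and at 6 of the 156 unmarked and 56 of the 100 marked developmental factors.

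Short sequence words were counted in the 300 bp centred on the main start, on both strands. They were the NRF1 site GCGCATGCG, the ETS site CCGGAAG, the GC box GGGCGG, the CCAAT box, the cAMP response element TGACGTCA, the E-box CACGTG, its extended form TCACGTGA, the E2F site TTTGGCGC, the YY1 site AAGATGGCG, the TATA box TATAAA, the homeobox core TAATTA and the word CGCG. TCACGTGA contains CACGTG. A match is a description of the letters and not a bound site. The windows can include transcribed bases.

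Several words known from broadly active promoters were less common in unmarked than in marked genes. The YY1 word was in 0.248% of unmarked (2 of 805, 0.0682% to 0.901%), 4.62% of marked and 2.32% of all autosomal coding promoters. The ETS word was in 7.33%, 20.9% and 11.7%, and the NRF1 word in 1.24%, 4.10% and 2.11%. The cAMP response element was in 2.11%, 3.89% and 2.32%. The TATA box was in 7.58% of unmarked and 3.84% of marked promoters, and in 10.6% of all. The intervals of the unmarked and marked shares did not overlap for these 5 words, nor for the GC box, the extended E-box and CGCG. In 1 kb windows they did overlap for the cAMP response element (2.52% to 5.13% against 4.87% to 5.79%) and for the TATA box (18.3% to 23.9% against 17.1% to 18.7%). The CCAAT box (33.7%, 34.1% and 35.7%) and the E-box (11.8%, 10.02% and 7.44%) were at similar shares, and the GC box was in 70.1%, 75.1% and 46.9%. The extended E-box was in 0.497%, 1.98% and 1.13%, the E2F word in 1.12%, 0.994% and 0.579%, the homeobox core in 1.74%, 1.07% and 3.86% and CGCG in 83.2%, 90.0% and 52.7%.

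Some words were common in one functional group, among its unmarked and its marked genes. The CCAAT box, bound by NF-Y, was in 24 of 35 unmarked cell cycle promoters (68.6%, 52.0% to 81.4%) and in 70.2% of the marked ones on that list. The E2F word was in 5 of the 35 (14.3%) and in 7.14% of the marked ones. The E-box was in 10 of 25 unmarked germ cell promoters (40.0%, 23.4% to 59.3%) and in 27.3% of the marked ones, while the extended form was in 0 of the 25. The Sycp3, Tex12, Hormad1, Ccnb2, Top2a and Mki67 windows printed above are examples of these 2 words. Among unmarked developmental factors the homeobox core was in 7 of 156 (4.49%) and the YY1 word in 0.

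**Figure D5:**
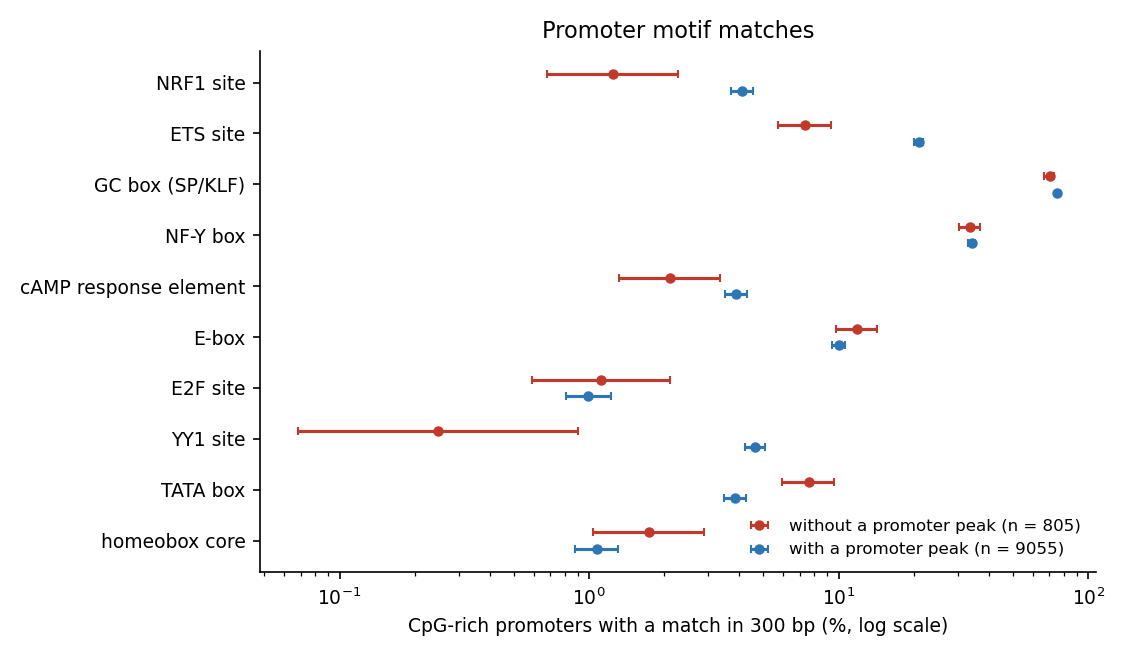
Share of CpG-rich promoters with at least one match of a short word in 300 bp (percent, log scale), for 805 without and 9055 with a replicated promoter peak, with 95% Wilson intervals. The extended E-box and CGCG are not drawn. The YY1 site lies at 0.248% against 4.62%, and the NF-Y box lies at 33.7% against 34.1%.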

How the data were processed

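The authors deposited 4 peak lists on mm10 from 4 samples: a replicated list of both pools, a list of both pools together and 1 list per pool. Per the labels' descriptive text they are narrowPeak files derived from alignments, and the last 3 are pseudoreplicated. No aligner or peak caller is named in the sources used here. Each peak carries a signal that the authors deposited without a stated scale, so it was used only within a list. The authors' −log10 q was used for 1 alternative, and the deposited integer score was not used. Start sites came from GENCODE M21 and sequence from GRCm38. Coordinates count from 1.

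From these, CpG ratios, distances, runs, 31-base word copies and short words were computed with Python 3.11.15, numpy 2.4.6, pandas 2.3.3 and numba 0.67.0, and Wilson intervals (95%) with scipy 1.17.1. The CpG-dense stretch joins 200 bp windows, moved by 10 bp, with a ratio of 0.6 or more and GC of at least 50%. Each deposited signal named for a gene is that of the highest peak within 1 kb. The overlap step was tested on simulated intervals, where all 200 genes left without an interval were found.

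Members and lists were chosen with earlier results of these data known. There were 52 lists by symbol pattern and 12 made after members had been seen. The 12 included the cell cycle, epithelial, monoamine, GABA, cerebellin, GDNF, fetal, imprinted, class I, retinoid and heparan lists. A gene can be on several lists, and 527 of the 805 are on at least 1. From each list up to 4 members, by highest CpG ratio, and up to 2 with the highest pool C signal were to be named, with the 15 farthest from a peak, the 15 of highest pool C signal, the 8 longest runs and the genes at the limits. Other genes were named after their values were seen, as were the 9 promoters printed and the tissue markers. No enrichment was tested. Differences of the hybrid strain from the reference were not analysed.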

Additional observations from a re-analysis of the deposited data

How the results depend on the processing

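The 805 genes and their 8.16% share were recomputed under other settings. A CpG ratio of 0.75 or more left 315 genes (5.26%), and 0.5 or more gave 10.04%. Replicated peaks above the median signal alone gave 10.3%. The list of both pools together gave 7.45%, all 4 lists joined 6.98%, and leaving out mostly repeated promoters, an alternative chosen after seeing the data, 7.40%. Using the list of a single pool gave 749 to 1055 genes and 7.60% to 10.7%: of the 1055 without a pool D peak 802 were among the 805, and of the 749 without a pool C peak 701 were. Windows of 500 bp and 2.5 kb gave 824 and 785 genes, a −log10 q of at least 5 gave 825 and the most upstream start gave 809. Of 60 list shares, 19 left their interval at a ratio of 0.75, and at most 4 did under any other setting. In 1 kb windows 10 of 12 motif shares rose beyond their interval. No paired analysis was possible because the samples form 1 group.

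The depth is unknown, and a promoter outside the lists is not shown to lack acetylation. With 2 pools the spread between animals cannot be given, and pool D had fewer promoter peaks than pool C. Signals of different lists were set side by side without a common scale. Lists by symbol hold genes of unlike function, and 278 of the 805 genes are on none.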

Other observations

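Of 29 CpG-rich imprinted genes, which are expressed from one parental copy, 11 were unmarked. This list and that of fetal and stem cell genes below were made after members had been seen. Cdkn1c, a growth inhibitor gene, had the longest CpG-dense stretch of the 805, at 2740 bp, and its promoter peak of 3.45 was in the list of both pools together and in neither pool alone. Dlk1 and Dio3, of one imprinted domain on chromosome 12, were in none of the 4 lists. Peg3, Peg10, Nnat and Ube3a were marked. Of 14 genes of fetal and stem cells, 10 were unmarked, among them Igf2bp1, Igf2bp2 and Igf2bp3, which encode fetal RNA-binding proteins, and Hmga2, a chromatin protein gene of growing tissue. Dnmt3b, a de novo DNA methyltransferase gene, had pool C signal of 4.34 and 2.90 in the list of both pools together.

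On a list of class I genes of the major histocompatibility complex, made after members had been seen, all 7 CpG-rich ones were unmarked. They were H2-K1 and 6 H2-Q genes, and 2 of them were mostly repeated. The 8 other genes of the list fell below the CpG threshold, and 4 of these had a promoter peak. For H2-K1, 17.7% of the promoter words occurred elsewhere, its nearest peak was 15.3 kb away, and 17 replicated peaks lay within 100 kb. A list of retinoid genes, also made after members had been seen, had 5 of 8 unmarked. The retinoic acid synthesis gene Aldh1a2 and the degradation gene Cyp26a1 were both among them. The list by symbol that holds these 2 genes, cytochromes P450 and conjugation enzymes, had 4 of 23 (17.4%, 6.98% to 37.1%). Across chromosomes the unmarked share ran from 4.28% on chromosome 16 to 12.7% on chromosome 14, where 30 of the CpG-rich genes were mostly repeated.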
